A study of Homo sapiens with 10 samples.

Results

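Cells of the line MDA-MB-435 kept with HGF for 24 h (2 arrays) were set directly against cells transduced with integrin Beta4, ITGB4 (2 arrays). These 4 arrays are part of 10, in 5 groups of 2. MDA-MB-435 is a human melanoma line. The labels name no transduction for the HGF 24 h cells and no HGF for the ITGB4 cells, which were stably transduced. The remaining arrays, of cells after HGF for 1 h and for 6 h and of untreated cells, entered the filter, the choice of a probe set per gene and the estimate of the spread, but not the difference. Their values beside a result are a description. A control group transduced without ITGB4 was not analysed here, so an effect of transduction and one of ITGB4 cannot be told apart. The descriptions of both ITGB4 arrays also hold the word Mock and are named in another form than the rest, so any difference in handling and the group cannot be told apart either. The study calls the arrays of a group biological duplicates.

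HGF, hepatocyte growth factor, is a secreted protein that binds the receptor tyrosine kinase MET and drives motility, survival and growth through the ERK and PI3K pathways. ITGB4 is an integrin subunit that pairs with ITGA6 to form the laminin receptor of hemidesmosomes, the junctions that tie epithelial cells to the basement membrane. Its long cytoplasmic tail can also serve as a signalling platform for growth factor receptors, MET among them. Neither HGF nor ITGB4 is part of the programme that defines melanocytes.

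The values are on the log2 scale, so that a difference of 1 is a doubling, and every difference below is HGF 24 h minus ITGB4. Probe sets were ranked by their second-highest value among the 10 arrays, and the first 10000 were kept and tested, down to a value of 7.35. They stand for 6291 genes. The value of a gene is that of its brightest kept probe set on average, here called its highest, unless stated otherwise. A probe set was called where the adjusted p of the limma fit was under 0.05. Where a group mean lies under 7.35, close to the background of the array, the size given for a difference is approximate.

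Of the 4 compared arrays 1 stood apart before any test. On the first principal component, which held 41.7% of the variance, the HGF 24 h arrays lay at 10.8 and 16.2 and the ITGB4 arrays at -22.3 and -0.60. Replicate 1 of the ITGB4 cells was thus farther from the HGF 24 h arrays than replicate 2 was. The correlation of replicate 1 with the HGF 24 h arrays over the kept probe sets was 0.956 and 0.949, and that of replicate 2 was 0.977 with both. Counts of calls are given without replicate 1, and so are the medians of some lists, although those of other lists moved too. The ACTB signal at the 3' end minus that at the 5' end, a sign of RNA quality, was -0.085 and -0.33 on the HGF 24 h arrays and -0.45 and -0.57 on the ITGB4 arrays. Its part in the results was not tested.

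ITGB4 was by far the largest difference. On its probe set with the highest mean it had values of 6.63 and 6.61 in HGF 24 h cells, against 13.23 and 12.96 in ITGB4 cells, and the untreated cells had 6.70 and 6.58. The difference was -6.47 (SE 0.13, limma adjusted p = 2.45e-10). The other kept probe sets of ITGB4 were lower in HGF 24 h cells as well, with differences of -6.39 (adjusted p = 2.02e-09) and -5.49 (adjusted p = 2.49e-08). HGF 24 h cells held the gene at the level of untreated cells, so these probe sets passed the filter only through the ITGB4 arrays, and all HGF 24 h values lie under 7.35. Another probe set of the gene was not kept and had 5.58 and 5.15 in HGF 24 h cells, against 5.06 and 5.47 in ITGB4 cells. That probe set did not separate the groups, unlike the other 3.

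The labelled cell type held on all 4 arrays. Among markers of the melanocyte lineage 20 of the 24 measured were kept, and the median of the 24 was 9.90 on both HGF 24 h arrays, against 10.20 and 10.40 on the ITGB4 arrays. SOX10, a transcription factor of the neural crest and its melanocytes, had 11.64 and 11.63 in HGF 24 h cells, against 11.35 and 11.29 in ITGB4 cells. MLANA, a melanosome protein, had 11.93 and 11.55 in HGF 24 h cells, against 11.74 and 11.86 in ITGB4 cells. Few of the epithelial and fibroblast markers were kept, 5 of 25 and 3 of 20. The median of the epithelial markers was 5.94 and 5.71 in HGF 24 h cells and 5.55 and 5.95 in ITGB4 cells, and CDH1, the adhesion protein of epithelia, had 4.83 and 4.88 in HGF 24 h cells and 4.58 and 5.02 in ITGB4 cells.

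More probe sets were called lower than higher in HGF 24 h cells, although differences of either sign were about equally common. Of the probe sets tested, 35 were higher (0.350%) and 180 were lower (1.80%) in HGF 24 h cells. A group mean lay under 7.35 for 6 of the 35 higher and 50 of the 180 lower ones. At an unadjusted p under 0.05 there were 853 higher and 1361 lower. By the highest probe set of each gene, 26 genes were higher (0.413%) and 80 were lower (1.27%), and by any kept probe set 31 were higher (0.493%) and 149 lower (2.37%). The sizes of the higher calls ran between 0.51 and 0.98, with a median of 0.65. Those of the lower calls other than ITGB4 reached 1.49, and 33 of these but 0 higher calls were larger than 1. Probe sets whose groups did not overlap were 2453 higher (24.53%) and 2433 lower (24.33%), and by the highest probe set 3300 of the 6291 genes had a positive and 2991 a negative difference. Over all kept probe sets the median difference was 0.0015, and 64.8% had a difference under 0.25 in size.

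**Figure D1:**
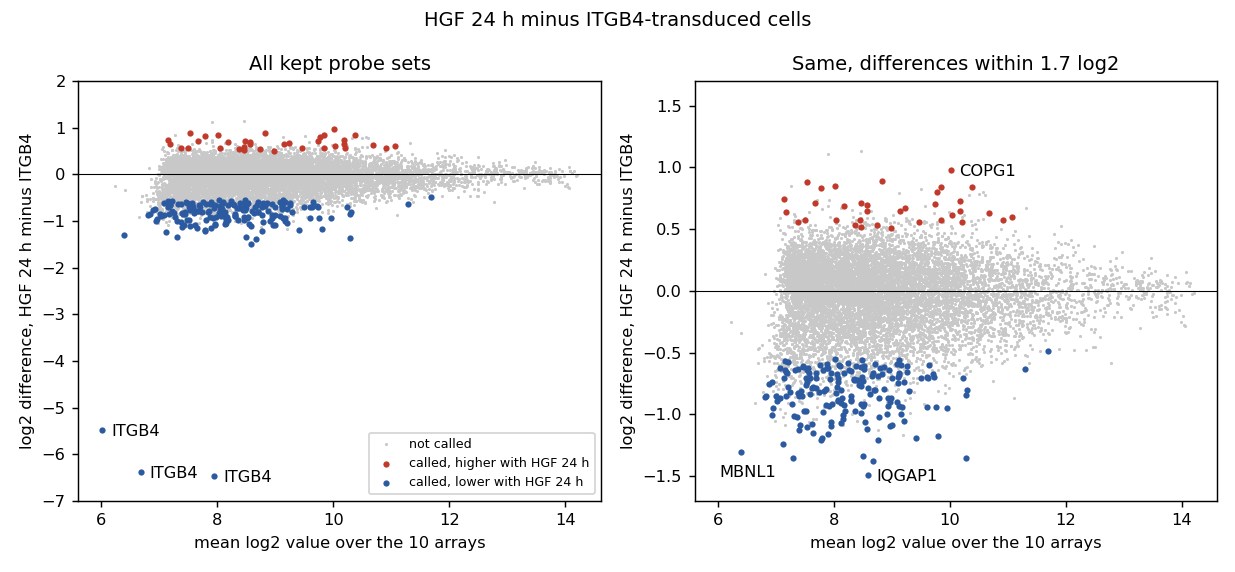
Each point is a kept probe set, with its mean log2 value over the 10 arrays on the x axis and the log2 difference, HGF 24 h minus ITGB4, on the y axis. The right panel shows differences within 1.7, and called probe sets are red (35 higher) or blue (180 lower). The 3 ITGB4 probe sets lie between -6.47 and -5.49, and the other lower calls reach -1.49.

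The calls rested on few arrays. Without replicate 1 of the ITGB4 cells 7 probe sets were called, all lower, and without replicate 2 there were 954, of which 110 were higher and 844 lower. Without either HGF 24 h array 5 and 13 were called. The arrays outside the comparison counted too, since they set the spread, with 12 calls without either HGF 6 h array, 59 without either untreated array and 195 without either HGF 1 h array. In all 10 fits that left out an array the same 5 probe sets were called, 3 of ITGB4, 1 of IQGAP1 and 1 of MBNL1.

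**Figure D2:**
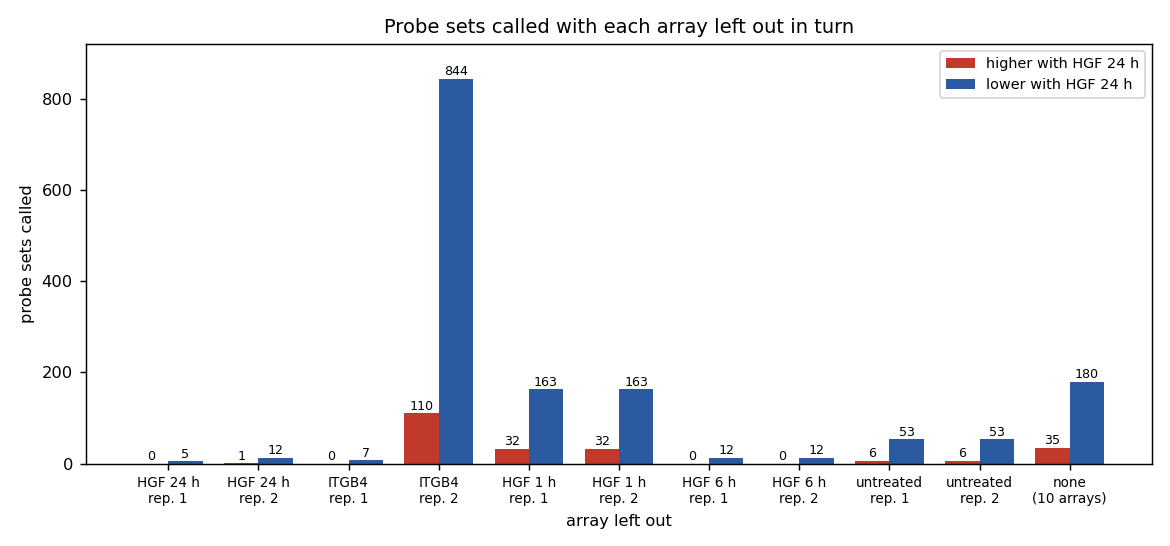
Bars give the number of probe sets called higher (red) and lower (blue) with HGF 24 h when the array named on the x axis is left out, with all 10 arrays at the right. The count falls to 5 lower calls without HGF 24 h replicate 1 and reaches 844 lower calls without ITGB4 replicate 2.

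IQGAP1 and MBNL1 were named after their values were seen, since their called probe sets are not the highest of the gene. IQGAP1, a scaffold protein of the actin cytoskeleton and of ERK signalling, had 8.12 and 8.27 on this probe set in HGF 24 h cells, against 9.78 and 9.60 in ITGB4 cells, with untreated cells at 8.79 and 8.55. Its difference was -1.49 (limma adjusted p = 4.35e-04), and -0.36 and -0.063 on the other kept probe sets of the gene, which were not called. MBNL1, an RNA-binding regulator of alternative splicing, had 6.37 and 6.28 in HGF 24 h cells, against 7.72 and 7.54 in ITGB4 cells, with untreated cells at 6.28 and 6.45. HGF 24 h cells thus lay at the untreated level for MBNL1, and below both untreated values for IQGAP1. The difference of MBNL1 was -1.30 (adjusted p = 8.46e-04) on this probe set and -0.39 on both others kept, which were not called. Both MBNL1 values of HGF 24 h cells lie under 7.35, and so do both of untreated cells. Among these groups the probe set reached the filter only through the ITGB4 arrays. The highest adjusted p with an array left out was 0.0115 for IQGAP1 and 0.0171 for MBNL1.

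Among the 12 genes with the largest higher calls, COPG1, a subunit of the COPI coat that returns proteins from the Golgi, had values of 10.22 and 10.51 in HGF 24 h cells, against 9.24 and 9.53 in ITGB4 cells. Its difference of 0.98 (SE 0.15, adjusted p = 0.0190) was the largest of the higher calls. ATG2A, a lipid transfer protein of the growing autophagosome, had 10.30 and 10.39 in HGF 24 h cells, against 9.44 and 9.55 in ITGB4 cells (difference 0.85). The groups did not overlap for either gene, and the untreated mean lay between them. FOLR1, the folate receptor alpha, had 10.49 and 10.57 in HGF 24 h cells, against 9.52 and 9.86 in ITGB4 cells (difference 0.84), and untreated cells had 10.85 and 10.44. SOX9, a transcription factor of neural crest and cartilage, had 10.59 and 10.40 in HGF 24 h cells, against 9.80 and 9.73 in ITGB4 cells (difference 0.73). The other kept probe set of SOX9 differed by 0.041 (adjusted p = 0.909) and its groups overlapped. On the called probe sets the groups were apart for these genes as well, and the untreated mean of FOLR1 lay above that of HGF 24 h cells, while that of SOX9 lay between the groups.

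The other higher genes have varied roles. COQ8A, a kinase-like protein needed to make coenzyme Q, was higher by 0.89 (adjusted p = 0.0422). SUPV3L1, an RNA helicase of the mitochondrial matrix, was higher by 0.69, and ECSIT, an adaptor of Toll-like receptor signalling that also helps assemble respiratory complex I, by 0.67. ANKZF1, which frees stalled chains from the ribosome, was higher by 0.69 and UBE3B, a ubiquitin ligase, by 0.71. The other kept probe set of UBE3B had the opposite sign, with a difference of -0.25 (adjusted p = 0.337). TRIM16 was higher by 0.88 and PHF21A, a histone reader of a demethylase complex, by 0.83. No theme was tested for these genes. TXNIP, a regulator of glucose uptake and thioredoxin, passed on 1 of 3 kept probe sets, where HGF 24 h cells had 10.56 and 10.15, against 9.58 and 9.52 in ITGB4 cells (difference 0.80, adjusted p = 0.0329). It differed by 0.59 and 0.78 on the others, which were not called, and was named after its values were seen.

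The largest lower calls after ITGB4 included a pair of fatty acid elongases. ELOVL6, which elongates saturated fatty acids, had values of 7.29 and 7.27 in HGF 24 h cells, against 8.68 and 8.19 in ITGB4 cells (difference -1.16, SE 0.15, adjusted p = 0.0143). ELOVL2, which elongates polyunsaturated fatty acids, had 7.57 and 7.76 in HGF 24 h cells, against 8.74 and 8.66 in ITGB4 cells (difference -1.04, adjusted p = 0.0143). Both HGF 24 h values of each gene lay below both ITGB4 values and below both untreated values, which were 8.22 and 8.12 for ELOVL6 and 8.21 and 8.43 for ELOVL2. ELOVL2 was called on its other kept probe set too, with a difference of -1.19 (adjusted p = 0.00325). PANK3, a pantothenate kinase of coenzyme A synthesis, had 7.69 and 7.25 in HGF 24 h cells, against 8.98 and 8.15 in ITGB4 cells (difference -1.09). PPIP5K2, a kinase that makes inositol pyrophosphates, was lower, with a difference of -1.12, and so was GCSH, a protein of the mitochondrial glycine cleavage system, with -1.19. The other kept probe set was not called for PANK3 (difference -0.36) or GCSH (-0.63). PANK3 in HGF 24 h cells lay under its untreated values of 8.43 and 8.23 as well, and its ITGB4 replicates differed by more than those of ELOVL2.

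The rest of these lower genes included transporters, an exocyst subunit and a transcription factor. ATP7A, a copper transporter, had 7.14 and 7.67 in HGF 24 h cells, against 8.60 and 8.34 in ITGB4 cells (difference -1.06, adjusted p = 0.0381). It was also called on its other kept probe set (difference -0.93). SLC38A6, a member of an amino acid transporter family, had 6.62 and 6.96 in HGF 24 h cells, against 8.06 and 7.70 in ITGB4 cells (difference -1.09). For both genes the untreated cells lay nearer the ITGB4 cells, at 8.10 and 8.32 for ATP7A and 7.74 and 7.76 for SLC38A6. EXOC5, a subunit of the exocyst that tethers vesicles to the plasma membrane, had 7.48 and 7.36 in HGF 24 h cells, against 8.98 and 8.27 in ITGB4 cells (difference -1.21). ELK3, an ETS transcription factor downstream of ERK, had 7.25 and 7.17 in HGF 24 h cells, against 8.53 and 8.06 in ITGB4 cells (difference -1.08, adjusted p = 0.0240). MTDH differed by -1.17. DCPH1 had 6.49 and 6.68 in HGF 24 h cells, against 8.14 and 7.52 in ITGB4 cells (difference -1.24). A group mean lies under 7.35 for 5 of the 11 lower genes, DCPH1 and PPIP5K2 among them, so these sizes are approximate. ITGB4 replicate 1 was the highest of the 4 arrays for EXOC5 and ELK3, and for all 11 of these lower genes it lay farther from the HGF 24 h arrays than replicate 2 did.

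Leaving out ITGB4 replicate 1 undid the calls of these 23 genes. Leaving out either HGF 24 h array undid all or nearly all of them too. Within the ITGB4 group the loss was particular to replicate 1, since the calls stayed without ITGB4 replicate 2. Without ITGB4 replicate 1 the 12 higher genes differed by 0.55 to 0.85 in size, and the 11 lower genes by 0.68 to 1.0. All 23 kept their direction.

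**Figure D3:**
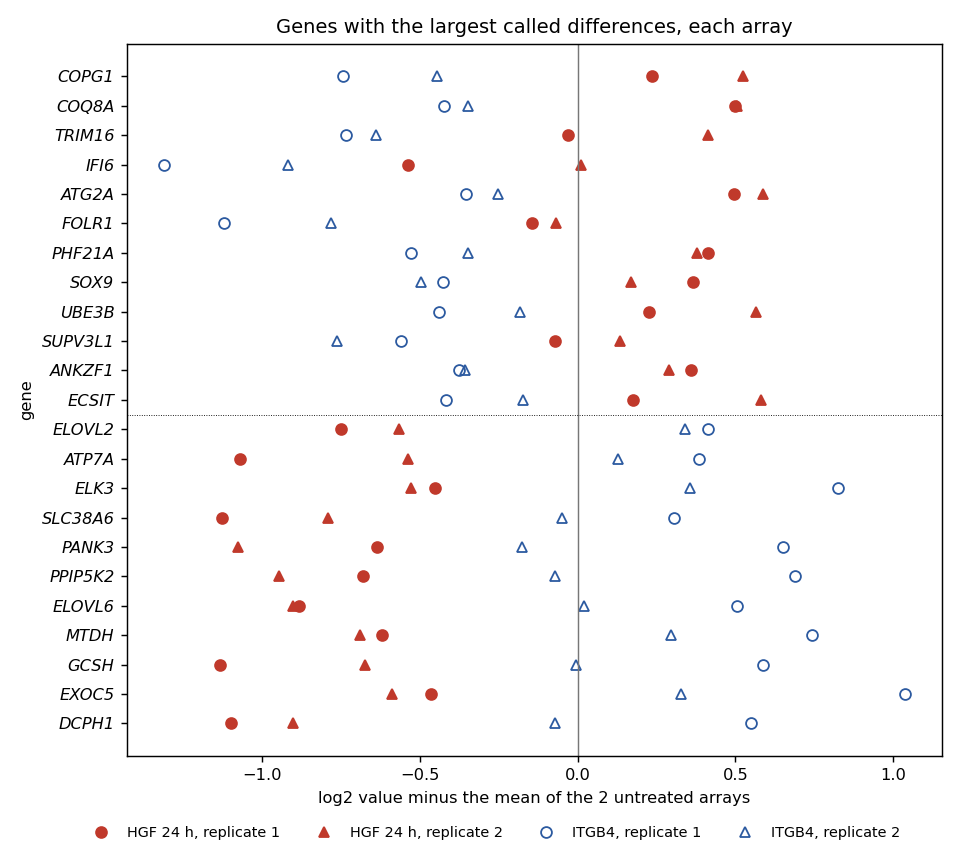
For the 12 largest higher and 11 largest lower calls other than ITGB4, the x axis gives the log2 value on each HGF 24 h (red) and ITGB4 (blue, open) array minus the mean of the 2 untreated arrays, which is the vertical line. The groups do not overlap for any gene, and the line lies between the group means for 10 of the higher and for all 11 lower genes.

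Untreated cells lay between HGF 24 h and ITGB4 cells for most calls. This held for the mean of 31 of the 35 higher and 167 of the 180 lower probe sets. Among the lower ones it was nearer the HGF 24 h mean for 83 and nearer the ITGB4 mean for 84. The median of the higher calls was 0.30 above untreated in HGF 24 h cells and 0.34 below it in ITGB4 cells, and that of the lower calls was 0.39 below untreated in HGF 24 h cells and 0.40 above it in ITGB4 cells. These values share the untreated arrays and are given as a description. The calls were chosen for a wide gap between HGF 24 h and ITGB4 cells, which by itself favours untreated means between them. The share over all kept probe sets was not counted. Measured from the mean of the 4 compared arrays, the 177 lower calls other than ITGB4 had a median deviation of -0.38 and -0.40 in HGF 24 h cells, 0.55 and 0.25 in ITGB4 cells and -0.0087 and 0.038 in untreated cells. It was -0.50 and -0.46 after 1 h and 0.0092 and -0.0015 after 6 h with HGF. The arrays after 6 h thus lay at the untreated level for these probe sets, and those after 1 h with the arrays after 24 h.

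**Figure D4:**
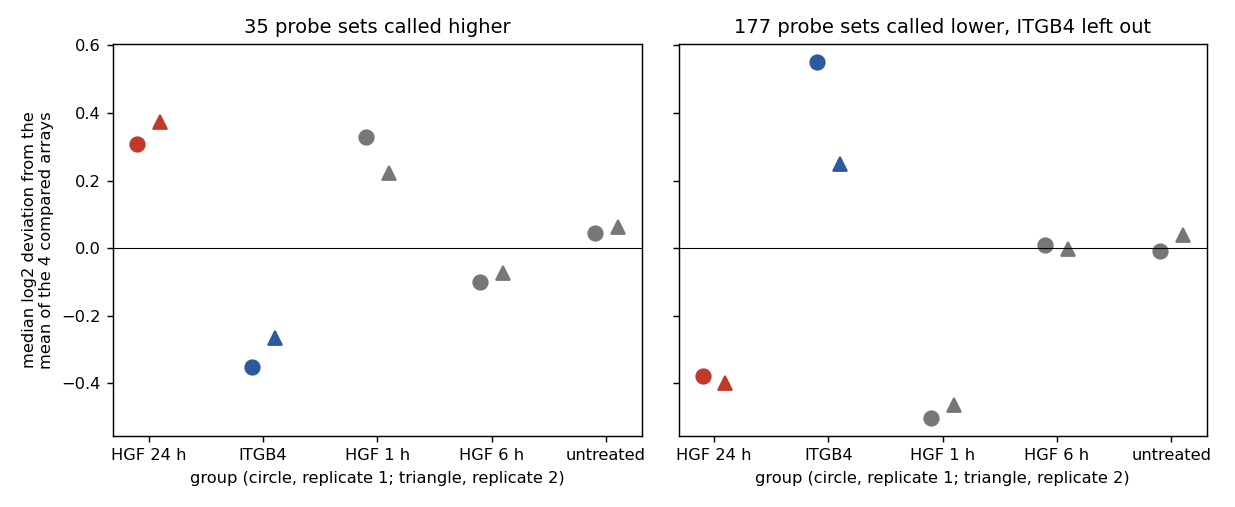
For each array, grouped along the x axis, the y axis gives the median log2 deviation of the called probe sets from the mean of the 4 compared arrays. In the left panel the 35 higher calls lie at 0.31 and 0.37 in HGF 24 h and at -0.35 and -0.27 in ITGB4 cells, and in the right panel the 177 lower calls lie at -0.38 and -0.40 in HGF 24 h and at 0.55 and 0.25 in ITGB4 cells.

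Genes with several probe sets differed in how far these agreed. Of the 149 genes called lower by any kept probe set 96 had more than 1 kept, and 12 of them were called on more than 1. In these 96 genes 145 kept probe sets were not called, and 134 of those had a negative difference, at a median of -0.37. The best probe set of each gene, that with the lowest adjusted p, had a median difference of -0.79. The gap between these medians follows in part from the choice by the test. The best probe set was the one with the highest mean in 24 of the 96 genes. EIF1AX, a translation initiation factor that helps select the start codon, passed on all 4 that were kept, with differences between -0.97 and -0.83. SCARB2, a lysosomal membrane receptor, was called on both of its own, and had values of 9.12 and 9.16 in HGF 24 h cells, against 9.80 and 9.83 in ITGB4 cells (difference -0.67, adjusted p = 0.0262). The untreated cells had 9.29 and 9.15, so SCARB2 stood at the untreated level in HGF 24 h cells, and its 2 ITGB4 arrays nearly coincided. LEPROT, a membrane protein that shares its gene locus with the leptin receptor, was called on both kept probe sets (differences -1.10 and -0.75), as was EIF4E, the protein that binds the mRNA cap (-0.74 and -0.85). GULP1, an adaptor for the uptake of dying cells, was called on 2 of 3, and so was NFE2L1, a transcription factor of proteasome genes, in the other direction (0.57 on both). HSP90B1, the HSP90 of the endoplasmic reticulum, had probe sets that disagreed in sign, with 0.57 on the one called (adjusted p = 0.0425) and -0.60 on the highest (adjusted p = 0.0788). Genes in this paragraph that no list or size rule names were chosen after their values were seen. Of the 31 genes called higher, 9 had more than 1 kept probe set, and 14 of their 18 that were not called were also positive.

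**Figure D5:**
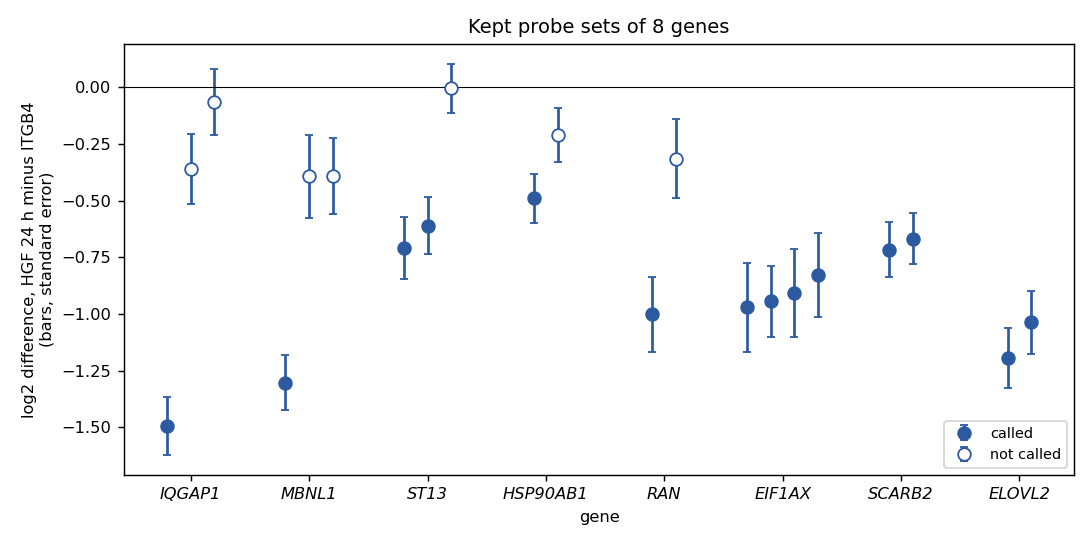
For 8 genes, each point is a kept probe set with its log2 difference, HGF 24 h minus ITGB4, on the y axis and its standard error as a bar, filled where called. EIF1AX, SCARB2 and ELOVL2 were called on every kept probe set, and IQGAP1, MBNL1, HSP90AB1 and RAN on 1 each.

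In 33 lists of pathway genes and markers, 13 lists held at least 1 gene called by its highest probe set. The counts below are to be read against the shares of all genes, 0.413% higher and 1.27% lower, and those by any kept probe set against 0.493% higher and 2.37% lower. No list held more than 2 calls by the highest probe set. Without ITGB4 replicate 1, and likewise without either HGF 24 h array, ITGB4 was the only list gene still called by its highest probe set. The list medians are descriptions, and several of them moved with 1 array.

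Interferon-induced genes gave 2 of the 26 higher genes, and none of the list was lower. IFI6, an interferon-induced protein of mitochondria, had values of 7.74 and 8.29 in HGF 24 h cells, against 6.96 and 7.35 in ITGB4 cells (difference 0.85, adjusted p = 0.0495). BST2, or tetherin, which holds budding virus at the cell surface, had 10.33 and 10.51 in HGF 24 h cells, against 9.79 and 9.94 in ITGB4 cells (difference 0.56, adjusted p = 0.0453). The groups did not overlap for either gene, and untreated cells, at 8.39 and 8.16 for IFI6 and 10.09 and 10.23 for BST2, lay above the ITGB4 cells. Of the 29 members kept, 22 had a positive difference, with a median of 0.17, which lay between 0.17 and 0.23 without any 1 of the 4 compared arrays. All genes had a median of 0.017 and 3300 of 6291 were positive. The promoter windows of IFI6 and BST2 are shown because both members called carry the letters of the interferon-stimulated response element. Capitals mark GAAA followed by any 2 bases and GAAA again, on either strand (TTTC on the other), with overlapping matches run together, in RefSeq sequence of GRCh38.p14 upstream of the start site on the strand of the gene.
IFI6 (chr1:27672246-27672378, minus strand): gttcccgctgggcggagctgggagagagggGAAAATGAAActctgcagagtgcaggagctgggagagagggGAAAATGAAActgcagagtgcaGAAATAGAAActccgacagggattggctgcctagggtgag
BST2 (chr19:17405715-17405790, minus strand): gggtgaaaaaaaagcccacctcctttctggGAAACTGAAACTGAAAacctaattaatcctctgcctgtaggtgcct
Over windows of 300 bases, 250 before and 50 after the start, these letters occurred in 3.57% of all 35116 windows and in those of 15 of the 23 list members that had one. Here and below the first share counts windows and the second counts genes. A gene can have several windows, so the shares are not of the same kind. A match of letters is a description of the sequence, not a site.

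Aminoacyl-tRNA synthetases, which charge tRNAs with amino acids, gave 2 of 16 higher and 0 lower. SARS1, for serine, had 10.97 and 11.07 in HGF 24 h cells, against 10.50 and 10.27 in ITGB4 cells (difference 0.63, adjusted p = 0.0410). YARS1, for tyrosine, had 11.46 and 11.43 in HGF 24 h cells, against 10.81 and 10.88 in ITGB4 cells (difference 0.60, adjusted p = 0.0485). Untreated cells were between the groups for both. The median of the list was 0.097, and 0.24 without ITGB4 replicate 1. Letters of the CEBP-ATF response element (TGATGNAA, either strand) occurred in 3.62% of all windows. They were found in the windows of 6 of the 13 members that had one, but not in those of SARS1. No result is given here for YARS1. Of the related list of ATF4 targets and amino acid metabolism, the genes that cells switch on when amino acids run short, 0 of 27 were called in either direction, 22 were positive and the median was 0.30, and 0.14 without ITGB4 replicate 2. TRIB3, a pseudokinase and target of ATF4, differed by 0.80 (adjusted p = 0.113).

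Cholesterol and fatty acid synthesis gave 2 of 25 lower and 0 higher, ELOVL6 and SC5D. SC5D, a desaturase late in cholesterol synthesis, had 8.78 and 8.60 in HGF 24 h cells, against 9.97 and 9.27 in ITGB4 cells (difference -0.93, adjusted p = 0.0420). Of the 25 members 18 were negative, with a median of -0.17. HMGCS1 and SQLE, enzymes earlier in the pathway, were called on a probe set other than their highest, with differences of -0.79 and -0.77. On the highest the differences were -0.80 (adjusted p = 0.0684) for HMGCS1 and -0.48 (adjusted p = 0.0579) for SQLE, and neither passed the test. Letters of the sterol regulatory element (TCACNCCAC, either strand) occurred in 1.13% of all windows and in those of 2 of the 22 members that had one. They did not occur in those of ELOVL6, SC5D or HMGCS1, and no result is given here for SQLE.

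Heat shock proteins had no call by the highest probe set among 31 genes, but 4 were lower on another, where 2.37% of all genes were lower by any kept probe set. The median of the list was -0.13, and 0.014 without ITGB4 replicate 1. DNAJA1, a cochaperone of HSP70, had 7.81 and 7.77 in HGF 24 h cells, against 9.42 and 8.58 in ITGB4 cells (difference -1.21, adjusted p = 0.0301). On its highest probe set the difference was -0.79 (adjusted p = 0.0807). DNAJA1 in HGF 24 h cells was below untreated cells too, at 8.99 and 8.92, and its ITGB4 arrays lay on either side of these. HSPH1, a nucleotide exchange factor of HSP70, differed by -1.05 on the called probe set (adjusted p = 0.0450) and by -0.92 on the highest (adjusted p = 0.0689). ST13, which links HSP70 to HSP90, was called on 2 of 3 kept probe sets, with differences of -0.71 and -0.61, and differed by -0.0026 on the highest. HSP90AB1, the constitutive cytosolic HSP90, had 11.56 and 11.59 on the called probe set in HGF 24 h cells, against 12.10 and 12.03 in ITGB4 cells (difference -0.49, adjusted p = 0.0467), and differed by -0.21 on the highest. On the called probe set untreated cells stood at 11.59 and 11.61, with the HGF 24 h cells. A stretch upstream of 1 annotated start site of HSP90AB1 is shown for the heat shock element. It lies within the span of the gene, which runs from 44246194 to 44253883. The element is here GAA, TTC and GAA or, on the other strand, TTC, GAA and TTC, each 2 bases apart. Capitals mark the matches, from the same RefSeq build.
HSP90AB1 (chr6:44247748-44247873, plus strand): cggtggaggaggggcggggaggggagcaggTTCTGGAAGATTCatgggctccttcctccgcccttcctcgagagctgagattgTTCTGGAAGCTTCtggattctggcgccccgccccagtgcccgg
The letters occurred in 0.49% of all windows and in those of 7 of 28 heat shock members that had one, and 1 of the 3 windows of HSP90AB1 held them. The window of DNAJA1 had 1 match after the start site and that of HSPH1 had none, and no result is given here for ST13.

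Nuclear transport gave 2 of 38 lower and 0 higher. KPNA4, an importin alpha, had 8.02 and 8.06 in HGF 24 h cells, against 8.73 and 8.58 in ITGB4 cells (difference -0.61, adjusted p = 0.0346), and SEH1L, a nuclear pore subunit, differed by -0.95 (adjusted p = 0.0425). The HGF 24 h mean of SEH1L lies under 7.35. RAN, the GTPase that gives transport its direction, was called on its lower probe set (difference -1.0, adjusted p = 0.0249) and differed by -0.31 on the higher. IPO7, an importin, was called on 2 of 4 kept probe sets. Of the 38 members 26 were negative. The median was -0.14, and it was 0.0078 without HGF 24 h replicate 1 and -0.085 without ITGB4 replicate 1.

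Splicing factors gave 1 of 40 lower, SRSF1, which had 9.83 and 9.82 in HGF 24 h cells, against 10.89 and 10.37 in ITGB4 cells (difference -0.80, adjusted p = 0.0474). Its other kept probe sets differed by -0.47 and -0.50 and were not called. The called probe set of SRSF1, like that of TPM1, is of a kind that can also bind transcripts of other genes. So are, among others, both kept probe sets of HSP90B1, the highest of MET and of HSPH1, and a called probe set of NFE2L1. By any kept probe set HNRNPK, MBNL1, MBNL2 and SFPQ were lower as well. Of the 40 members 31 were negative, with a median of -0.19. It was -0.072 without ITGB4 replicate 1, and -0.38 with 7 lower calls without replicate 2.

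Among the genes closest to HGF and ITGB4 few passed the test. In the hemidesmosome and laminin list ITGB4 was the only call among 11 genes, and the median of the list was 0.053, and -0.097 without HGF 24 h replicate 1. ITGA6, the partner of ITGB4, had values of 9.16 and 8.97 in HGF 24 h cells, against 10.25 and 9.51 in ITGB4 cells, with untreated cells at 9.49 and 9.20 (difference -0.82, adjusted p = 0.0740). MET, the receptor of HGF, had 8.78 and 8.39 in HGF 24 h cells, against 9.52 and 9.12 in ITGB4 cells, with untreated cells at 9.38 and 8.86 (difference -0.73, adjusted p = 0.0829). On these probe sets the HGF 24 h values lay below the ITGB4 values, but neither gene passed the test. On the other kept probe set of ITGA6 the groups overlapped, with 8.17 and 7.84 in HGF 24 h cells, against 8.78 and 7.96 in ITGB4 cells (difference -0.36, adjusted p = 0.365). HGF itself was not kept. The other integrin subunits had 0 of 9 called, with ITGAV at -0.48 and ITGA3 at 0.32, and the HGF receptor pathway 0 of 17, with PIK3R1, the regulatory subunit of PI3K, at -0.85 (adjusted p = 0.0579). In the ERK feedback list 0 of 19 were called by the highest probe set, and 16 were negative, with a median of -0.16. That median was -0.055 without HGF 24 h replicate 1 and -0.064 without ITGB4 replicate 1, and -0.39 with 6 lower calls without ITGB4 replicate 2. Measured from the mean of the 4 arrays, the list lay at -0.28 and -0.011 on the HGF 24 h arrays and at 0.30 and -0.076 on the ITGB4 arrays, so that replicate 2 of both groups was close to that mean. DUSP6, a phosphatase of ERK, was called on 1 of 3 kept probe sets, where HGF 24 h cells had 7.34 and 7.47, against 8.68 and 7.97 in ITGB4 cells (difference -0.92, adjusted p = 0.0413). CCND1, cyclin D1, differed by -1.09 (adjusted p = 0.132), with a spread of 0.094 in HGF 24 h cells and 1.12 in ITGB4 cells (SD, n = 2 each). In the actin and focal adhesion list TPM1, a tropomyosin, was the 1 lower call of 35 genes (difference -0.81, adjusted p = 0.0366), and CALD1 and IQGAP1 were lower on another probe set.

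Of the genes of DNA replication, S phase, G2 and M phase 1 was called by its highest probe set. Of 51 genes of DNA replication and S phase 44 had a negative difference, with a median of -0.15. The list lay at -0.38 and 0.14 from the mean of the 4 arrays on the HGF 24 h arrays, at 0.065 and 0.13 on the ITGB4 arrays and at -0.27 and 0.15 on the untreated arrays. The low level was thus that of HGF 24 h replicate 1, with untreated replicate 1 also low, and without HGF 24 h replicate 1 the median difference was 0.035. SLBP was the one called, and RFC3, a subunit of the clamp loader, was called on another probe set (difference -0.97). SLBP, which binds histone mRNA, had 9.18 and 9.28 in HGF 24 h cells, against 9.94 on both arrays of ITGB4 cells (difference -0.70, adjusted p = 0.0348), and untreated cells had 9.28 and 9.64. Of 66 genes of G2 and M phase 48 were negative, with a median of -0.18, and 0 were called in either direction. This list lay at -0.23 and 0.074 on the HGF 24 h arrays, at 0.050 on both ITGB4 arrays and at -0.33 and 0.20 on the untreated arrays, and its median difference was -0.019 without HGF 24 h replicate 1. MAD2L1, a spindle checkpoint protein, differed by -0.81 (adjusted p = 0.0827) and LMNB1, a nuclear lamin, by -0.83 (adjusted p = 0.110).

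Melanocyte lineage markers gave 2 of 20 lower and 0 higher, with 15 negative and 5 positive differences and a median of -0.053, and 0.022 without HGF 24 h replicate 2. TYR, the tyrosinase of melanin synthesis, had 11.65 and 11.64 in HGF 24 h cells, against 12.09 and 12.14 in ITGB4 cells and 12.17 and 12.10 in untreated cells, and was not called. GPM6B, a membrane proteolipid, had 9.72 and 9.57 in HGF 24 h cells, against 10.78 and 10.41 in ITGB4 cells (difference -0.95, adjusted p = 0.0190), with untreated cells at 10.34 and 10.29. Its other kept probe sets differed by -0.57 and -0.34 and were not called. BCL2A1, an antiapoptotic BCL2 protein and a target of NF-kB as well, had 7.32 and 7.38 in HGF 24 h cells, against 8.01 and 7.88 in ITGB4 cells (difference -0.60, adjusted p = 0.0348). HGF 24 h cells were below untreated cells for both, while BCL2A1 in ITGB4 cells was close to its untreated values of 7.92 and 7.87. Respiratory chain subunits gave 2 of 60 lower and 0 higher. SDHD, the membrane anchor of succinate dehydrogenase, had 8.32 and 8.31 in HGF 24 h cells, against 8.94 and 9.13 in ITGB4 cells (difference -0.72, adjusted p = 0.0285), with untreated cells at 8.29 and 8.33. NDUFA5, a subunit of complex I, differed by -0.70 (adjusted p = 0.0426). SDHD thus stood at the untreated level in HGF 24 h cells, and the list as a whole had 33 of 60 positive, with a median of 0.011. Ribosomal proteins of the cytosol had 0 of 51 called, with a median of 0.035, and proteasome subunits 0 of 35, with a median of -0.042. Lysosomal genes had 1 of 45 lower, SCARB2, and 0 higher, while 30 of 45 were positive. In 20 of the lists no gene was called by its highest probe set.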

How the data were processed

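RNA was hybridised to Affymetrix hgu133a arrays. The authors summarised and normalised the probe data with RMA (affy), which leaves the deposited values in log2 units. The filter on presence calls was replaced by rank: non-control probe sets were ordered by their second-highest value among the 10 arrays and the first 10000 kept. Gene names came from the platform annotation, and a probe set with more than 1 symbol, or without one, was tested but not named.

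With limma 3.58.1 in R 4.3.3, 1 mean for each group was estimated from all 10 arrays, with 5 residual degrees of freedom, and the contrast HGF 24 h minus ITGB4 was tested two-sided with moderated variances and Benjamini-Hochberg adjustment over the kept probe sets. An exact permutation test of 2 arrays against 2 cannot go below p = 0.333. The number of arrays limits the precision. The program was tested on simulated data. Genes named are the 12 largest called differences each way without overlap of the arrays, up to 4 called members each way per list or the 2 largest where none was called, and ITGB4, ITGA6, MET and HGF. Genes named for a probe set that is not their highest were chosen after their values were seen. Members and lists were chosen with earlier results of these data known. The alternatives tried were 13 other settings and leaving out each array.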

Additional observations from a re-analysis of the deposited data

How the results depend on the processing

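The difference of ITGB4 kept its direction and its call under every alternative, between -6.61 and -6.33 with an array left out. The counts of the other calls moved. They were 340 (298 lower) without a filter, 108 (84 lower) with 5000 probe sets kept, 90 genes (17 higher, 73 lower) with the kept probe sets of a gene averaged, 59 (6 higher, 53 lower) without the untreated arrays in the fit, 5 (0 higher, 5 lower) with only the 4 compared arrays, and 7 (0 higher, 7 lower) with Holm adjustment or at an adjusted p under 0.01. Median centring gave 58 higher and a fold threshold of 1.5 gave 23 higher. With an array left out the calls ran between 5 and 954, the higher ones between 0 and 110 and the lower ones between 5 and 844, the fewest without HGF 24 h replicate 1 and the most without ITGB4 replicate 2. Where an array was left out, the single array of its group was assumed to vary like those of other groups. At an unadjusted p under 0.05 there were 1562 probe sets with only the 4 compared arrays and 2034 without HGF 24 h replicate 1. Among the genes named by the rule, on their highest probe set, EGR1, which was not called, was the 1 to change direction, at -0.54 with all arrays and between -1.52 and 0.44 with an array left out, the highest without ITGB4 replicate 1. The replicate block gave 412 calls (95 higher, 317 lower), MET (adjusted p = 0.0203) and ITGA6 (0.0495) among them. Of the fits that left out an array, only that without ITGB4 replicate 2 called these genes. There MET differed by -0.93 and ITGA6 by -1.18, while without ITGB4 replicate 1 they differed by -0.53 and -0.45. The replicate numbers were not taken to pair the samples. The deviations of same-numbered arrays correlated between -0.14 and 0.46. For HGF 24 h they correlated at 0.46 with HGF 6 h, 0.45 with untreated and 0.21 with ITGB4. The negative values were those of HGF 1 h with HGF 24 h and with ITGB4. Whether same-numbered arrays belong together was not tested. The causes of these shifts were not tested, except that fewer arrays leave fewer degrees of freedom. Values near background and 2 arrays a group limit what can be told of small differences.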
